A study of Mus musculus with 8 samples.

Results

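Chromatin accessibility in haematopoietic stem cells (HSC) of mice labelled Bcl11aMUT was compared with that of mice labelled Bcl11aWT, with the sorted populations T1 and T2 of each genotype pooled. The comparison took 4 MUT against 4 WT libraries, which are all 8 libraries of the series. All mice carried Vav1-cre, a recombinase driven in blood cells, and an iMOS Bcl11a construct in its MUT or WT form. They were 3 months old by the sample names, and given as 2 to 3 months elsewhere in the labels. Each of the 4 groups (MUT T1, MUT T2, WT T1 and WT T2) held 2 libraries of 5000 nuclei from sorted long-term HSC of bone marrow. The study asked about the role of Bcl11a within HSC and about effects of its overexpression on wild-type HSC nearby. How T1 and T2 cells were told apart, which of them overexpress Bcl11a, what the MUT form is, and whether libraries came from separate animals are not given in the sources used here. The p-values therefore rest on the spread between libraries alone, which may be technical. In ATAC-seq a transposase inserts adapters into open chromatin, and a peak marks a stretch where fragments pile up above their surroundings.

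HSC sustain all blood lineages for life and stay mostly quiescent, and their identity is held by transcription factors that act through open promoters and distal enhancers. BCL11A is a zinc-finger factor that binds DNA and recruits repressive complexes such as NuRD. It silences fetal globin genes in red cells and is needed for B lymphoid development. A change in such a repressor can show as peaks that come or go, or as a graded change in the strength of peaks that are present throughout.

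The 8 peak lists merged into 88724 regions on chromosomes 1 to 19, and 48684 of them (54.9%) held a peak in all 8 libraries. Libraries held 60944 to 73328 peaks on these chromosomes. The genome background recovered from the lists, a measure of depth, ran from 1.89 to 3.38 fragments per position. MUT T1 replicate 2 (2.04) and the WT T2 libraries (2.45 and 1.89) were the shallowest. Depth was 2.93 ± 0.610 in MUT and 2.72 ± 0.672 in WT (SD, n = 4 each, exact two-sided permutation p = 0.686, adjusted p = 0.857 over 5 library measures). Of the 28 genes for HSC identity factors, 27 had a region called in all 8 libraries. Genes of other cells had such regions too, among them 15 of 20 B lymphoid and 19 of 20 stromal and endothelial genes, so their presence alone does not tell the cell types apart.

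Presence and absence were counted first. A region was gained when all 4 MUT and no WT libraries held a peak there, and lost in the reverse case. There were 198 gained regions (0.223% of all merged regions) and 53 lost regions (0.0597%). The rule itself chose these regions, so their values are a description without a test. Ordered by the lowest value among the 4 calling libraries, the first gain lay inside Itga6, an integrin subunit gene (chr2:71852136-71852794, mm10), with fold enrichments of 10.9 and 14.2 for MUT T1 and 12.8 and 11.9 for MUT T2. Fold enrichment is the authors' ratio of the peak summit over its local background. The next gain lay near Ptprt, a receptor phosphatase gene (chr2:161511256-161512463), at 10.5 and 10.8 for MUT T1 and 10.6 and 10.1 for MUT T2. These 2 regions were strong in every MUT library and absent from every WT list. Among the losses, the one whose lowest WT value was highest lay near Rims2, a gene of synaptic vesicle release (chr15:39172666-39173511), at 11.1 and 8.85 for WT T1 and 10.4 and 7.60 for WT T2. The next in that order (chr3:60762980-60763314) had 10.4 and 7.46 for WT T1 and 11.02 and 11.4 for WT T2, higher on average.

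Most gained and lost regions were weak peaks. The median fold enrichment of the gained regions was 4.74 to 5.01 in the MUT libraries, at percentiles 17.5 to 26.3 of all regions called in the same library. Lost regions stood at medians of 4.89 to 5.87, at percentiles 25.5 to 26.1. Their median widths were 534 bp and 487 bp, against 925 bp for regions called in all 8 libraries. Just outside the rule, 514 regions were called in 4 MUT and 1 WT libraries and 609 in 3 MUT and no WT libraries. Their median fold enrichment in MUT was 5.06 and 4.62, close to the 4.96 of the gained regions. In the other direction, 171 regions were called in 4 WT and 1 MUT libraries (4.74) and 227 in 3 WT and no MUT libraries (4.59), beside 5.33 for the lost ones.

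**Figure D1:**
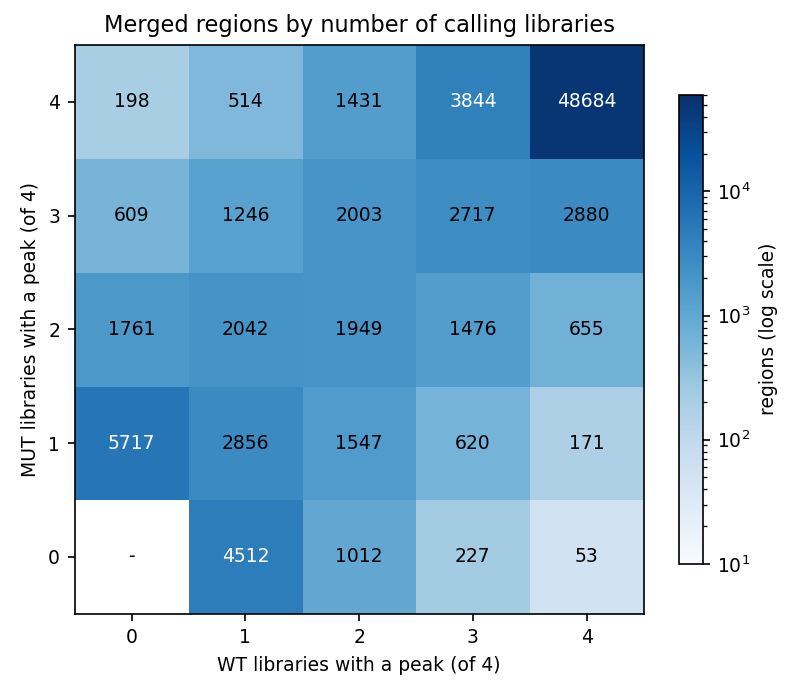
Number of merged regions by how many of the 4 WT libraries (x axis) and of the 4 MUT libraries (y axis) held a peak, on a logarithmic colour scale. The corner called in all 8 libraries holds 48684 regions, the gained corner (top left) 198 and the lost corner (bottom right) 53.

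Gains outnumbered losses, and that split moved with the number of peaks per library. With the same number of peaks kept in each library, 132 regions were gained and 80 lost. Leaving out a library relaxes the rule. The gained count then exceeded 1.5 times its value without the second library of MUT T1 (528) or of MUT T2 (308), either library of WT T1 (328 and 377) or the first of WT T2 (321). The lost count did so without the first library of MUT T1 (117), either of MUT T2 (116 and 80), the first of WT T1 (87) or either of WT T2 (116 and 161). Without the 3 shallowest libraries the counts were 1165 and 790.

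Gains and losses lay mostly away from gene ends. A region was placed at a gene end when it reached within 1 kb of either end of a protein-coding gene span, which made up 17.8% of merged regions but 4.55% of gained (9) and 7.55% of lost ones (4). Inside genes lay 83 gained and 22 lost regions. Outside genes, 68 gained and 14 lost regions had a gene end within 50 kb, and 38 and 13 had none. Exons and introns were not told apart here. Regions at gene ends were also those most often called in all 8 libraries (84.7%, against 54.9% of all merged regions), and such regions cannot be gained or lost.

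At the genes of the lists, 5 of 2447 merged regions were gained (0.204%, near the 0.223% over all merged regions) and 0 were lost. That at Itga6 is among them. The region near Ccr2, the chemokine receptor gene of inflammatory monocytes, had fold enrichments of 5.60 and 5.27 for MUT T1 and 3.80 and 5.02 for MUT T2. That near Nr4a3, an orphan nuclear receptor gene of the immediate early group, stood at 3.65 and 5.27 for MUT T1 and 6.17 and 5.61 for MUT T2, and that near F2r, which encodes a thrombin receptor, at 4.10 and 4.48 for MUT T1 and 4.96 and 5.89 for MUT T2. All were moderate or weak peaks in the MUT lists and absent from the WT lists. The gain within Tbx21, a master regulator gene of T cells and NK cells, was weaker still, at 3.56 and 3.98 for MUT T1 and 3.41 and 3.29 for MUT T2.

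Graded change was then measured in the 48684 regions that every library called, where presence or absence cannot differ. Within each library these regions were ranked by their highest fold enrichment, and ranks were scaled from 0 to 100. The lowest ratios lie near 0 and the highest at 100. Strong and weak refer to this ratio throughout, not to the number of fragments. No region passed an adjusted p of 0.05 for MUT against WT (limma with Benjamini-Hochberg adjustment, 0 higher and 0 lower, 0% called each way, lowest adjusted p = 0.101). At an unadjusted p under 0.05 there were 2910 regions (5.98%), 1522 higher in MUT (3.13%) and 1388 lower (2.85%). The median absolute difference between genotypes was 4.01 rank points, below the median standard error of 6.43. The differences between genotypes were thus mostly within the spread between libraries.

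A plainer count asks where the 4 MUT values all lie above, or all below, the 4 WT values. That held for 848 regions higher in MUT (1.74% of those tested) and 757 lower (1.55%). An exact two-sided permutation test of 1 such region gives p = 0.0286, the smallest that 4 against 4 libraries allow. If library order were random at each region, about that share (0.0286) would be apart, beside the 3.3% seen in either direction. The 848 and 757 regions are therefore not a count of graded changes. The median absolute difference among these regions was 14.1 rank points, and the extremes were 57.4 and -52.2. The count grew when any 1 library was left out, to 1416 to 1885 higher and 1381 to 1888 lower, since fewer values then had to be ordered.

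Across libraries the largest axis of variation followed depth and the next separated the genotypes. The first principal component of the rank values held 23.7% of their variance. Its loadings were -0.547 in MUT T1 replicate 2 and -0.287 and -0.466 in WT T2, the 3 shallowest libraries, and 0.106 to 0.444 in the other 5. The second component (16.1%) had loadings of 0.156 to 0.495 in the MUT and -0.457 to -0.210 in the WT libraries, without overlap. No test was made of this axis. Correlations of the rank values between libraries were 0.836 to 0.902 within a genotype (mean 0.875) and 0.841 to 0.898 between genotypes (mean 0.870). Both T2 libraries of WT were shallow and neither of MUT was, so depth and genotype cannot be told apart within T2. With depth as a term in the limma fit 0 regions passed in either direction, and 1757 were higher and 1750 lower at an unadjusted p under 0.05.

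**Figure D2:**
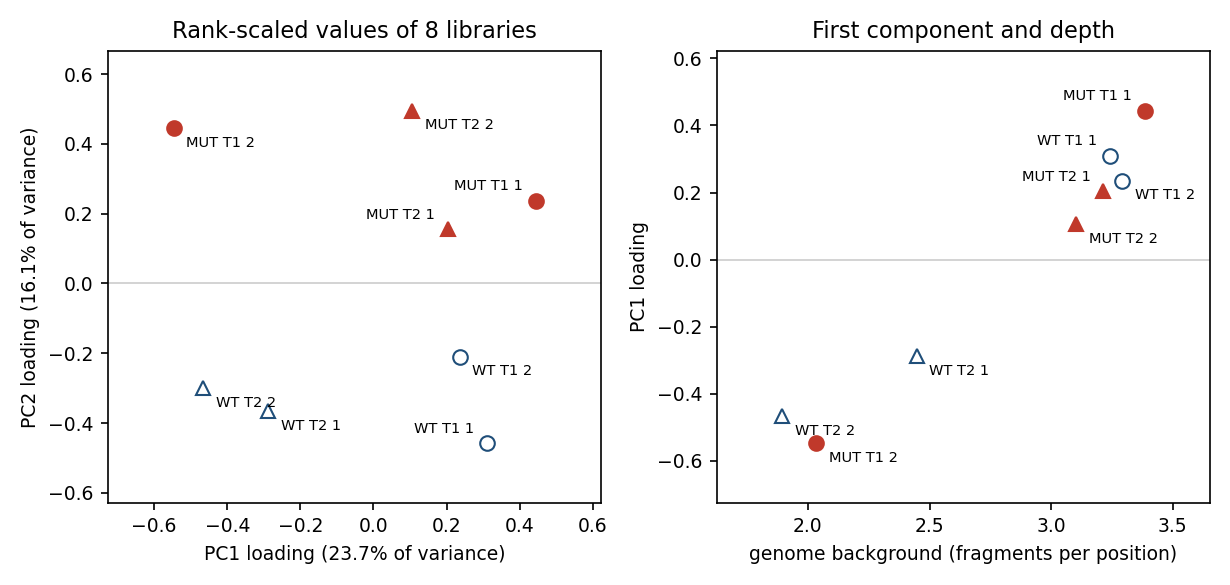
Left, loadings of the 8 libraries on the first and second principal components of the rank-scaled values, with MUT filled, WT open, T1 as circles and T2 as triangles. Right, the first component against the genome background of each library: the 3 libraries with the lowest background, 1.89 to 2.45 fragments per position have negative loadings, and on the second component all MUT libraries lie above 0 and all WT libraries below 0.

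The genotype difference in T1 and that in T2 rest on separate libraries. Across regions their Pearson correlation was -0.0169, and 47.2% of regions had the same sign in both. The correlation was -0.133 at gene ends and 0.0306 elsewhere. Regions share libraries and depth and are not replicates, so these values are descriptions. No region passed a test of the difference between the T1 and the T2 effect (limma interaction, 0 regions, lowest Benjamini-Hochberg adjusted p = 0.680, 3538 at an unadjusted p under 0.05).

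Gene ends had the smallest share of such regions. Of 13369 regions tested at gene ends, 2.75% had genotypes that did not overlap (183 higher and 184 lower in MUT), against 3.3% over all regions. The share was 3.46% inside genes (348 and 311), 3.59% at sites within 50 kb of a gene (214 and 195) and 3.49% at sites farther away (103 and 67). In 5 equal groups of regions by mean rank the share was 2.54 to 2.88% at gene ends and 3.15 to 3.85% elsewhere, and it was lower at gene ends in each group. The median spread within a genotype was also smaller at gene ends, at 6.97 rank points (SD), against 9.04 to 10.4 in the other classes. The classes were not compared by a test.

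Among gene ends, the lowest p for a higher value and 1 of the 6 lowest for a lower value fell on neighbouring copies of a purine salvage gene. Pnp encodes purine nucleoside phosphorylase, and Pnp2 is its tandem copy. At the Pnp2 end (chr14:50955705-50956858) fold enrichments were 9.98 and 13.2 for MUT T1, 12.8 and 13.1 for MUT T2, 8.02 and 7.92 for WT T1, and 9.28 and 8.98 for WT T2. All 4 MUT libraries exceeded all 4 WT libraries, with mean ranks of 93.4 ± 5.41 in MUT and 59.5 ± 3.34 in WT (SD, n = 4 each, difference 33.9 ± 4.28 (SE), limma Benjamini-Hochberg adjusted p = 0.136). At the Pnp end (chr14:50943859-50945120), 10.6 kb away, they were 10.4 and 11.4 for MUT T1, 11.01 and 9.65 for MUT T2, 14.3 and 13.5 for WT T1, and 13.1 and 16.2 for WT T2. There the order was reversed, with ranks of 85.6 ± 3.74 in MUT and 96.98 ± 2.94 in WT (difference -11.4 ± 2.66, limma adjusted p = 0.579). By summit pileup, the number of fragments over the summit, the Pnp difference was -1.63 (limma adjusted p = 0.929), with overlapping pileups of 149 and 115 for MUT T1, 157 and 131 for MUT T2, 169 and 159 for WT T1, and 137 and 138 for WT T2. Pnp2 stood at 43.5 by that measure. The copies are alike in sequence, and no source used here says how reads that match both were treated, which leaves the split between them uncertain.

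The other 5 gene ends with the lowest p among those higher in MUT were those of Gm3248, Brms1l, Mfng, Gm5784 and Gm572. Brms1l encodes a subunit of the Sin3 histone deacetylase complex, and its fold enrichments (chr12:55869779-55870532) were 10.03 and 11.7 for MUT T1, 12.1 and 11.4 for MUT T2, 8.25 and 8.51 for WT T1, and 8.99 and 11.1 for WT T2. At Mfng, which encodes the Manic fringe glycosyltransferase that modifies Notch receptors (chr15:78754009-78755007), they were 4.71 and 5.62 for MUT T1, 4.89 and 5.53 for MUT T2, 3.11 and 3.72 for WT T1, and 4.51 and 4.16 for WT T2. In rank, both regions were higher in every MUT library, at means of 89.97 and 66.8 for Brms1l and 16.4 and 4.004 for Mfng. The unscaled fold enrichments at Brms1l overlapped through WT T2 replicate 2, whose median over all its peaks was the highest of the 8 libraries (7.66). The predicted genes Gm3248, Gm5784 and Gm572 differed by 31.7 ± 6.30, 48.8 ± 10.5 and 30.6 ± 7.73 rank points, and Gm572 turned to -4.74 when summit pileup was ranked in place of the ratio.

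Gene ends lower in MUT included that of Prdm2, a zinc-finger gene of the PR domain family (chr4:143211694-143213096). Its fold enrichments were 8.73 and 8.65 for MUT T1, 8.53 and 8.88 for MUT T2, 10.2 and 11.3 for WT T1, and 13.2 and 12.9 for WT T2. The MUT values were nearly equal to each other and all lay below the WT values (difference -22.9 ± 4.47, limma adjusted p = 0.427). Bloc1s4, which encodes a subunit of the BLOC-1 complex of lysosome-related organelles (chr5:36747923-36749065), stood at 8.70 and 9.54 for MUT T1, 9.22 and 8.23 for MUT T2, 10.3 and 10.1 for WT T1, and 12.3 and 12.4 for WT T2. Trim5, of the tripartite motif family of antiviral factors (chr7:104287213-104288799), stood at 5.11 and 5.93 for MUT T1, 4.51 and 3.66 for MUT T2, 7.07 and 6.06 for WT T1, and 8.41 and 7.56 for WT T2. In each the highest MUT library lay below the lowest WT library. By summit pileup the differences were smaller, at -8.21 for Prdm2, -6.49 for Bloc1s4 and -9.01 for Trim5, against -22.9, -16.8 and -28.8 by the ratio. Dlk1, an imprinted gene for a Notch-related ligand, and the acid phosphatase gene Acp7 were weak peaks throughout, with mean ranks of 8.51 and 5.39 in MUT and 19.5 and 14.6 in WT.

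**Figure D3:**
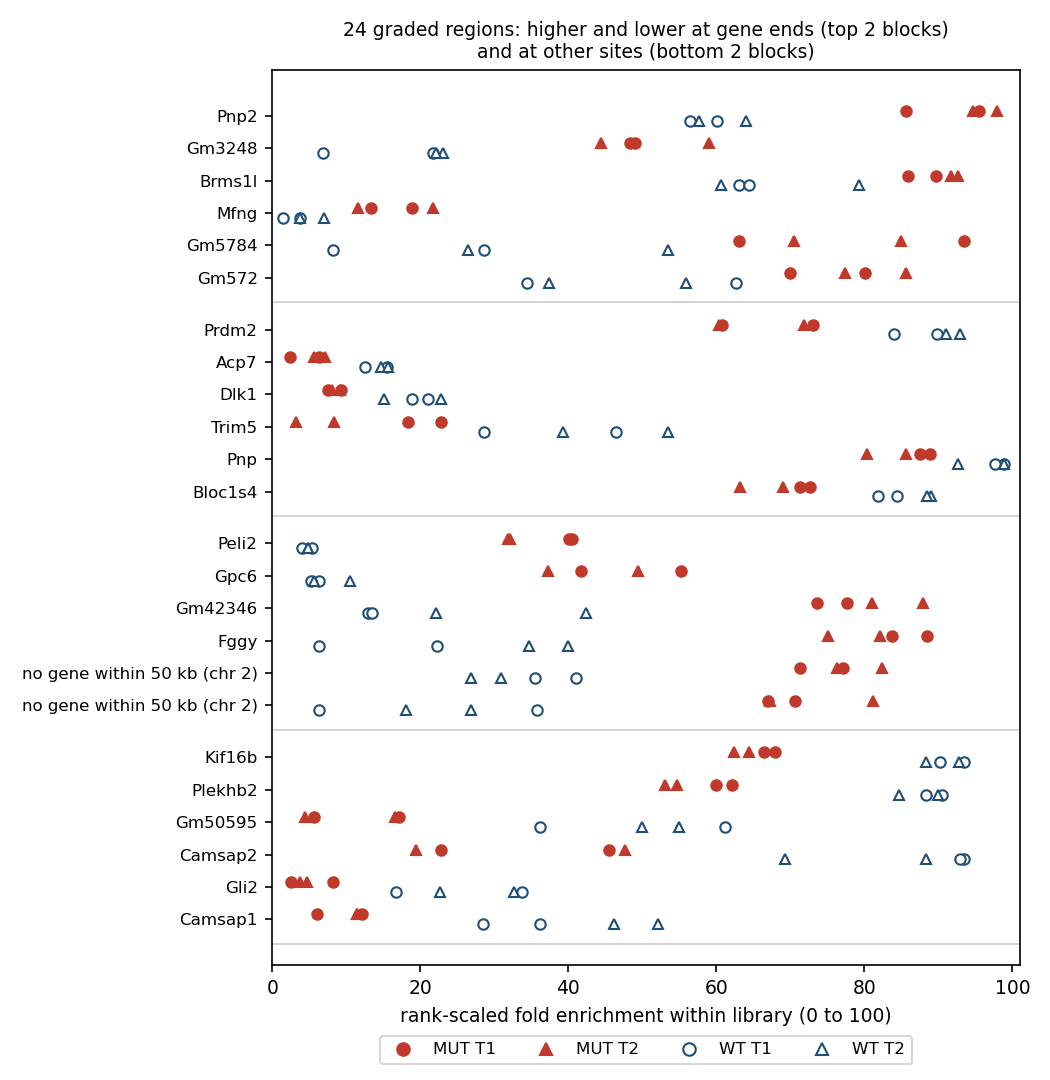
Rank-scaled fold enrichment (x axis, 0 to 100 within a library) of the 24 graded regions with the lowest p whose genotypes do not overlap, at 6 gene ends higher and 6 lower in MUT and at 6 other sites higher and 6 lower. Filled red symbols are MUT and open blue ones WT libraries, circles T1 and triangles T2: red and blue are apart in each row by the choice of the rows, while their distance runs from 9.22 to 57.4 rank points between means.

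Promoter windows from RefSeq (GRCm38.p6, the build of mm10, 250 bases before to 50 after a transcript start, 5′ to 3′) are shown for 5 gene ends whose windows lie whole inside the measured region, chosen after their values and matches were seen: 3 lower in MUT by rank, the HSC factor gene Gfi1b and the pileup result Etnk2, both described below. Capitals mark matches, on either strand, to 5 motifs. The motif TGACCA is bound by BCL11A. The motif TGTGGT is that of RUNX factors. GATA factors bind AGATAA. ETS factors bind CCGGAAG, and AP-1 binds TGANTCA, where N is any base.
Pnp: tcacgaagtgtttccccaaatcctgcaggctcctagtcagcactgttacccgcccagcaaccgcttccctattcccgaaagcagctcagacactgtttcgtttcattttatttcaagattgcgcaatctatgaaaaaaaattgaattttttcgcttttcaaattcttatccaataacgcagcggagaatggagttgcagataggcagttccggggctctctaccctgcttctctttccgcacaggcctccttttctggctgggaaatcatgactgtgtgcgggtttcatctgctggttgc
Trim5: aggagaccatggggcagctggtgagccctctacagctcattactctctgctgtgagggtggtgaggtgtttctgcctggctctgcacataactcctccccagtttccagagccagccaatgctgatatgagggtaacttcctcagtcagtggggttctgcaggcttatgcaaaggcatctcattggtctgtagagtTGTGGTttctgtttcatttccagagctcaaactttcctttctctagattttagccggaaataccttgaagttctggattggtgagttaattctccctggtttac
Bloc1s4: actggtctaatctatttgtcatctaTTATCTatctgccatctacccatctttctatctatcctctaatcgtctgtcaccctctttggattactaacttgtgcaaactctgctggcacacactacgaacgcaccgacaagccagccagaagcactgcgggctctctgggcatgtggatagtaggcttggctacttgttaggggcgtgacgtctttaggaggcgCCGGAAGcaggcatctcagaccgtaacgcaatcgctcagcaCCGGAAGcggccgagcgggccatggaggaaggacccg
Gfi1b: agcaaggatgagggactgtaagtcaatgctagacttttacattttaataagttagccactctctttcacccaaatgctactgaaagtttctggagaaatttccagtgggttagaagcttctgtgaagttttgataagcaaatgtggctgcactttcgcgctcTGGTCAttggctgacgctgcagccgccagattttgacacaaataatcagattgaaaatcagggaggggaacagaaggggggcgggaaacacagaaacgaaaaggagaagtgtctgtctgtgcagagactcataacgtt
Etnk2: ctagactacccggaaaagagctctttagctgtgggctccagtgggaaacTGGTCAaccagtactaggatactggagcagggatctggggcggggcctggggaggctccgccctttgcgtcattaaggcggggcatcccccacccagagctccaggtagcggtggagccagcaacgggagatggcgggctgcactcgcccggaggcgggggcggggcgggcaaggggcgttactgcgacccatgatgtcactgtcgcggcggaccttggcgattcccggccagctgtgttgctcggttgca
The windows lie at chr14:50944053-50944352, plus strand (Pnp), chr7:104288057-104288356, minus strand (Trim5), chr5:36748630-36748929, minus strand (Bloc1s4), chr2:28621933-28622232, minus strand (Gfi1b) and chr1:133363322-133363621, plus strand (Etnk2).

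The Gfi1b and Etnk2 windows each hold 1 match to the BCL11A letters, which occur in 13.7% of 31365 promoter windows of this length. Trim5 holds 1 match to the RUNX letters, found in 16.7% of windows. Bloc1s4 holds 2 matches to the ETS and 1 to the GATA letters, found in 9.0% and 11.2%. No window holds the AP-1 letters (in 7.85% of all), and the Pnp window holds none of the 5 motifs. The windows of Gm3248, Gm572, Acp7, Mta2, Tbx21 and the pileup result Gm5165 also lie whole inside their regions and are not printed. They hold no match to the BCL11A letters. Among them, Mta2 holds 2 matches to the ETS letters, Gm5165 holds 1 to the ETS letters, and Gm572 holds 1 to the GATA letters. Of the windows only partly inside their regions, that of Gm5784 holds 1 match to the BCL11A letters, and those of Dlk1, Fgfbp3 and Bcl11a hold none. The Dlk1 window holds 1 match to the RUNX letters. A match is a match of letters and does not show that a factor bound there.

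At sites away from gene ends, the lowest p of all fell inside Peli2, which encodes a ubiquitin ligase of Toll-like and interleukin-1 receptor signalling. The region (chr14:48202116-48203014) had fold enrichments of 6.52 and 7.19 for MUT T1, 6.51 and 6.23 for MUT T2, 3.67 and 3.97 for WT T1, and 4.18 and 4.37 for WT T2. Its mean ranks were 36.2 ± 4.82 in MUT and 4.76 ± 0.565 in WT (difference 31.4 ± 3.46, limma adjusted p = 0.101), a ratio of MUT over WT of 1.70 after centring on library medians. Inside Gpc6, a gene for a cell surface heparan sulfate proteoglycan (chr14:117710541-117711149), they were 6.61 and 8.24 for MUT T1, 6.88 and 7.31 for MUT T2, 4.01 and 3.96 for WT T1, and 4.93 and 4.49 for WT T2. In both, a peak with a mean rank under 10 in WT had a mean rank of 36.2 or 45.9 in MUT, and the difference was 35.6 in T1 and 27.2 in T2 at Peli2, and 42.6 and 35.3 at Gpc6. On log2 fold enrichment these 2 regions, and no other, passed (limma Benjamini-Hochberg adjusted p = 0.0288 each). By summit pileup they parted: the Peli2 difference was 45.2 (limma adjusted p = 0.00290) and that of Gpc6 7.98 (0.624).

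The largest rank difference stood in a stretch of distal chromosome 4 that holds many related zinc-finger genes. The region nearest Gm42346 (chr4:145367093-145367937) had fold enrichments of 9.14 and 9.75 for MUT T1, 10.4 and 10.6 for MUT T2, 4.72 and 4.89 for WT T1, and 7.54 and 6.22 for WT T2, and mean ranks of 80.1 ± 6.08 in MUT and 22.7 ± 13.8 in WT. Of the 4 regions tested between the Tnfrsf8 end and the Gm42346 side of this stretch, 3 were higher in every MUT than in any WT library. The 2 beside it (chr4:145360580-145361492 and chr4:145463640-145464535) differed by 52.7 ± 8.60 and 52.3 ± 9.02 rank points. Reads from related genes may be shared here, and no source used here says how they were placed. Inside Fggy, a gene for a carbohydrate kinase (chr4:95884678-95885381), the values were 9.76 and 11.5 for MUT T1, 9.78 and 9.83 for MUT T2, 4.01 and 5.59 for WT T1, and 6.96 and 7.60 for WT T2, again without overlap (difference 56.6 ± 8.43). Regions of chromosome 2 with no gene end within 50 kb (chr2:73973652-73974438 and chr2:128507505-128508271) differed by 43.2 ± 6.58 and 49.8 ± 8.09.

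Lower in MUT, the lowest p fell inside Kif16b, a gene for a kinesin of endosomes (chr2:142797084-142798109). Fold enrichments were 8.22 and 9.23 for MUT T1, 8.84 and 8.17 for MUT T2, 11.2 and 12.1 for WT T1, and 13.1 and 12.4 for WT T2 (difference -25.9 ± 3.59, limma adjusted p = 0.213). Near Plekhb2 (chr1:34896671-34897387) they were 7.76 and 8.76 for MUT T1, 7.98 and 7.65 for MUT T2, 11.3 and 11 for WT T1, and 11.6 and 12.7 for WT T2. In both, WT libraries were in the top ranks, with means of 91.2 and 88.4, and MUT libraries nearer the middle. By summit pileup the Plekhb2 difference was -16.5, against -30.9 by the ratio. The microtubule minus-end binding genes Camsap2 and Camsap1 each held a region lower in MUT, with differences of -52.2 ± 8.88 and -30.4 ± 5.50 rank points. The Camsap2 region (chr1:136325833-136326467) stood at 6.84 and 5.93 for MUT T1, 7.60 and 5.36 for MUT T2, 11.9 and 11.9 for WT T1, and 9.78 and 12.4 for WT T2. Near Gli2, which encodes a transcription factor of Hedgehog signalling, weak peaks differed by -21.7 ± 3.91, and near Gm50595 by -39.6 ± 6.55.

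The ratio divides the summit by a local background, and the choice of that ratio mattered. When the summit pileup itself, recovered from the lists, was ranked in the same way, 16 regions were higher (0.0329%) and 5 lower (0.0103%) in MUT at a limma adjusted p under 0.05 (lowest 0.00290). By the ratio none of these 21 passed, 15 had an unadjusted limma p under 0.05, and 11 did not overlap between genotypes. All 21 had the same direction by both measures, which share the summit pileup and so are not independent. The 21 included Peli2 (limma adjusted p by pileup = 0.00290), Pnp2 (0.00832), Gm42346, Fggy and Camsap2. At Peli2 the summit pileups were 83 and 64 for MUT T1, 83 and 83 for MUT T2, 42 and 46 for WT T1, and 32 and 27 for WT T2. Pileups printed throughout are fragment counts not scaled for depth, while the test used their ranks within a library. The WT T2 libraries had backgrounds of 2.45 and 1.89 fragments per position, against 3.21 and 3.10 in MUT T2.

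Other pileup results named transcription factor genes. Inside Rarb, which encodes a retinoic acid receptor, a region higher in MUT (chr14:16597778-16598727) had summit pileups of 71 and 39 for MUT T1, 55 and 62 for MUT T2, 27 and 31 for WT T1, and 27 and 14 for WT T2. Another region, lower in MUT (chr14:16518756-16520020), had 35 and 35 for MUT T1, 36 and 39 for MUT T2, 72 and 94 for WT T1, and 50 and 65 for WT T2. Their limma adjusted p by pileup were 0.00832 and 0.0416. By the ratio the first did not overlap between genotypes (difference 43.95 ± 9.54), while the second did (difference -14.9 ± 8.87, limma adjusted p = 0.886). Inside Runx3, a RUNX family factor gene of lymphoid and myeloid cells (chr4:135166313-135167290), summit pileups were 21 and 18 for MUT T1, 26 and 21 for MUT T2, 39 and 48 for WT T1, and 31 and 31 for WT T2 (limma adjusted p = 0.0447). By the ratio its values were 4.06 and 4.68 for MUT T1, 5.02 and 4.24 for MUT T2, 5.89 and 6.50 for WT T1, and 5.90 and 7.83 for WT T2, also without overlap. At Etnk2, an ethanolamine kinase gene whose promoter is printed above (chr1:133363095-133364401), summit pileups were 127 and 104 for MUT T1, 145 and 131 for MUT T2, 88 and 75 for WT T1, and 91 and 65 for WT T2 (limma adjusted p = 0.00832). By the ratio the Etnk2 ranks overlapped, at 57.4 ± 5.48 in MUT and 42.7 ± 8.80 in WT. Gene ends of Pfkfb2, an enzyme gene of glycolytic control, and of Fgfbp3 passed by pileup as well, with rank differences by the ratio of 3.12 ± 4.76 and 6.22 ± 6.42.

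Genes of the HSC programme and of other blood lineages were read from 17 lists, whose members were counted against the 1.74% higher and 1.55% lower of all regions. No list member passed an adjusted p of 0.05. HSC identity factors had 191 regions tested, of which 2 were higher and 6 lower in MUT without overlap, with a median difference of 0.287 rank points beside -0.121 over all regions. The lower ones included Etv6, an ETS factor gene required for HSC survival in adult marrow (chr6:134201972-134202702), at 5.29 and 6.37 for MUT T1, 5.42 and 5.79 for MUT T2, 6.18 and 7.31 for WT T1, and 7.46 and 8.80 for WT T2. The end of Gfi1b, a repressor gene of HSC and of the erythroid and platelet lineages (chr2:28621446-28622943), stood at 6.08 and 6.35 for MUT T1, 6.04 and 6.11 for MUT T2, 6.75 and 6.66 for WT T1, and 8.23 and 9.82 for WT T2. Near Mllt3, a gene that supports HSC self-renewal (chr4:88046233-88046781), values ran the other way, at 5.25 and 8.24 for MUT T1, 5.70 and 5.36 for MUT T2, 3.77 and 3.96 for WT T1, and 4.64 and 5.53 for WT T2. The ranks did not overlap in any of the 3, although the unscaled fold enrichments did at Etv6 and Mllt3. By summit pileup the differences were -10.5, -6.40 and 3.998, against -21.2, -20.2 and 20.8 by the ratio. The unadjusted limma p were 0.00731, 0.0229 and 0.0150, with adjusted p of 0.747, 0.792 and 0.778.

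Among 44 erythroid regions, 4 were lower and 0 higher in MUT without overlap, with a median difference of -1.20. That median was close to those of B lymphoid genes (-1.15) and of granulocyte and monocyte genes (-1.03). The 4 erythroid regions lay at membrane skeleton and surface genes of red cells and at Hemgn. Inside Sptb, the beta-spectrin gene (chr12:76649961-76650636), fold enrichments were 7.07 and 10.2 for MUT T1, 9.26 and 8.77 for MUT T2, 10.4 and 12.1 for WT T1, and 11.9 and 11.7 for WT T2. Near Hemgn, which encodes a nuclear protein of haematopoietic progenitors, they were 4.89 and 4.68 for MUT T1, 5.47 and 5.78 for MUT T2, 6.40 and 5.83 for WT T1, and 7.99 and 7.26 for WT T2. The Ank1 end and a region inside Rhd differed by -14.3 ± 5.36 and -11.6 ± 4.73 rank points. All 4 had adjusted p of 0.731 to 0.806 in limma. The 4 lower regions are 9.09% of the list, against 1.55% lower over all regions, and that difference was not tested. By summit pileup the differences were -14.2 at Sptb, -4.99 at Hemgn and -6.48 at Ank1, and Rhd turned to 1.15.

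In the other lists few regions were apart, in both directions in some lists and in 1 direction in others. B lymphoid genes had 2 and 2 of 67 regions higher and lower (5.97% apart, against 3.3% over all regions, not tested). Bach2, a repressor gene of B cell differentiation, differed by -23.5 ± 7.39. Foxo1 had 1 region lower (-15.5 ± 5.11) and 1 higher (21.4 ± 7.23). T and NK lymphoid genes had 2 and 1 of 79, granulocyte and monocyte genes 0 and 0 of 41, megakaryocyte and platelet genes 1 and 0 of 52, and stromal and endothelial genes 2 and 0 of 70. Among the genes that rise in old HSC, 4 of 83 were higher (4.82%, against 1.74% over all regions) and 0 lower. That difference in share was not tested. The 4 regions included the end of Neo1, a netrin and repulsive guidance receptor gene, at 23.7 ± 8.70, and a region shared with the HSC list near Mllt3. The others lay inside Aldh1a1 (7.91 ± 3.31) and Vwf (8.99 ± 6.24). By summit pileup the differences were 8.86 at Neo1, 3.998 near Mllt3, 5.82 at Aldh1a1 and 5.89 at Vwf. At an unadjusted limma p under 0.05, 5 regions of this list were higher and 2 lower. HSC receptors and surface markers had 1 and 0 of 104, the region near the tetraspanin gene Cd81, weak throughout, at mean ranks of 8.85 and 2.68.

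Signalling and partner lists likewise had few regions apart. Counts of regions higher and lower without overlap were 0 and 1 of 76 for NF-kB and inflammation, 0 and 1 of 80 for interferon response, 2 and 2 of 89 for AP-1 and immediate early, 0 and 3 of 133 for TGF-beta and BMP signalling, and 2 and 2 of 92 for cell cycle and survival genes. The region near Batf3, which encodes an AP-1 factor of dendritic cells (chr1:191118884-191119830), had fold enrichments of 5.42 and 6.20 for MUT T1, 6.45 and 5.56 for MUT T2, 4.24 and 5.08 for WT T1, and 4.95 and 5.61 for WT T2, apart between genotypes in rank but not before scaling (limma adjusted p = 0.620). Over the 17 lists, the region with the lowest p had an adjusted p of 0.620 to 0.881. The 3 lower regions of the TGF-beta and BMP list included those near Bmp4, a secreted ligand, and Smad6, an inhibitory SMAD, at -16.5 ± 6.21 and -17.9 ± 6.99. BAF and NuRD genes, whose products partner BCL11A, had 1 and 1 of 81, at Bcl7a (9.71 ± 6.53) and at the end of Mta2 (-8.42 ± 6.28).

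**Figure D4:**
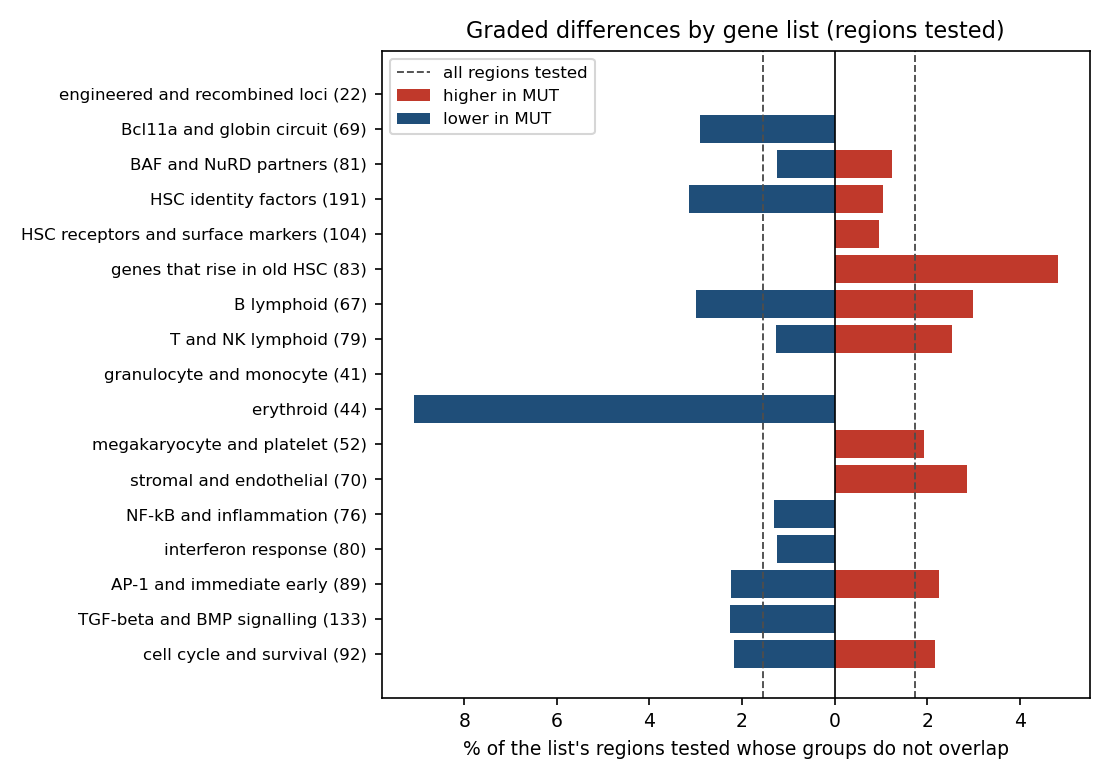
Share of each list's tested regions (number in parentheses) whose genotypes do not overlap, to the right for higher and to the left for lower in MUT, with dashed lines at the shares over all regions tested (1.74% and 1.55%). The longest bar, for erythroid genes to the left, stands for 4 of 44 regions.

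The Bcl11a locus itself did not separate the genotypes in the values measured. Its 6 regions called in every library differed by -10.3 to 0.816 rank points, and all 6 overlapped between genotypes (limma, lowest adjusted p = 0.900). The one with the highest ratio (chr11:24161897-24162716) had fold enrichments of 6.72 and 7.63 for MUT T1, 7.08 and 6.49 for MUT T2, 7.42 and 7.996 for WT T1, and 8.37 and 8.05 for WT T2, with the lowest in MUT T2 replicate 2 and the highest in WT T2 replicate 1. The region at an end of the gene (chr11:24076085-24077768) had among the lowest ratios of all, at 2.87 and 3.82 for MUT T1, 2.97 and 3.15 for MUT T2, 2.79 and 2.90 for WT T1, and 3.36 and 3.18 for WT T2, with mean ranks of 1.40 in MUT and 0.847 in WT. By summit pileup the order of these regions was reversed. The gene end had 125 and 104 for MUT T1 and 133 and 124 for MUT T2. Its WT pileups were 129 and 130 for T1 and 120 and 93 for T2. The region with the highest ratio had 69 and 44 for MUT T1 and 64 and 58 for MUT T2. Its WT pileups were 73 and 79 for T1 and 58 and 41 for T2. The 4 regions tested at Vav1 and the 1 at the Gt(ROSA)26Sor locus, which overlaps an end of Setd5, also overlapped between genotypes. The list of engineered and recombined loci had 0 and 0 of 22 regions apart. In the globin circuit, 2 of 69 regions were lower in MUT without overlap and none higher. They lay inside Igf2bp3, a fetal RNA-binding protein gene (-19.9 ± 6.65), and near Myb, a regulator of fetal globin (-11.3 ± 5.87).

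Differences were unevenly spread over the genome. Gained regions made up 7.39 per 1000 merged regions on chromosome 14, against 2.23 over all chromosomes and 3.62 at most on another. Chromosome 14 also had the highest share of graded regions without overlap, 4.29% (49 higher and 31 lower of 1865). Its first 70 Mb held 2428 of its 3654 merged regions, with 24 of its 27 gained and all 6 lost ones. Of the chromosome's 1865 tested regions, 1238 lay there, with 32 higher and 25 lower without overlap. Peli2, Pnp, Pnp2, Rarb and Gm3248 lie in that stretch. Of the 21 pileup results, 7 lie on chromosome 14, which held 1865 of the 48684 regions tested.

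In windows of 10 Mb, the one from 50 to 60 Mb of chromosome 14 held 9 gained and 1 lost of 491 merged regions. Of 263 regions tested there, 10 were higher and 8 lower. On chromosome 4, the window from 140 to 150 Mb held 4 gained and 3 lost of 519 merged regions. Of 293 regions tested there, 13 were higher and 13 lower (8.87%). This window has Prdm2, Gm42346 and the lost region inside Pex14. The 8 windows with 5 or more gained or lost regions held 19.9% of these regions and 4.37% of all merged regions, while 115 of 257 windows held none. Higher and lower regions lay side by side in these windows.

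**Figure D5:**
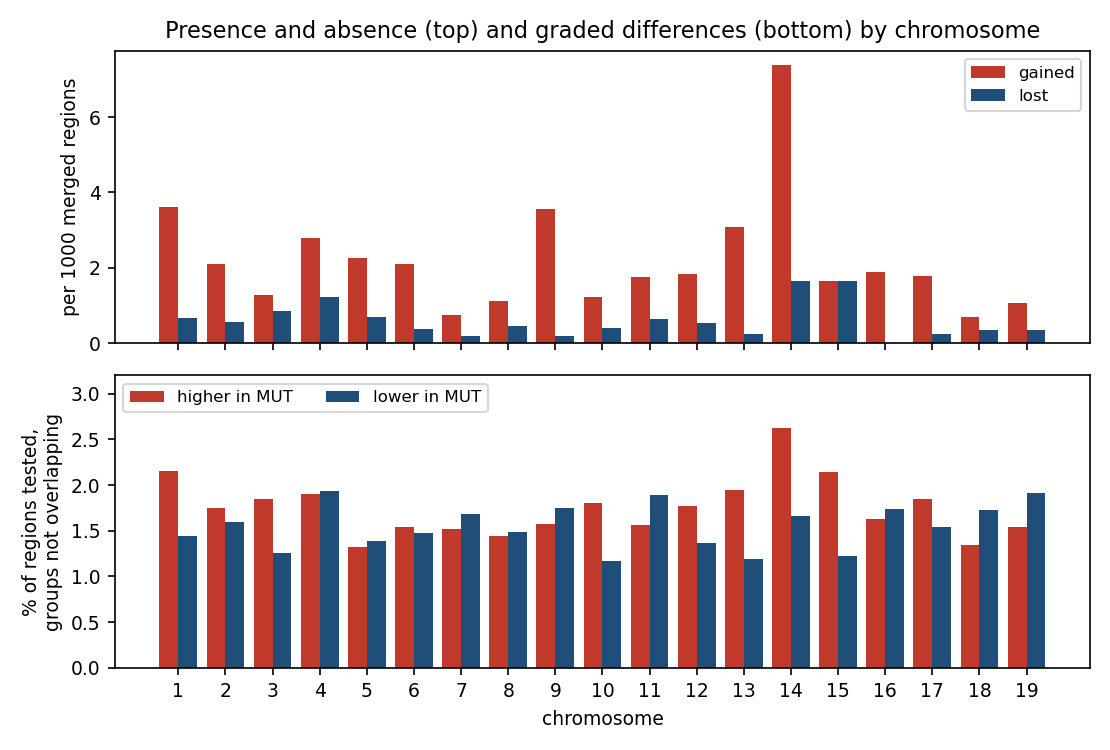
Top, gained (red) and lost (blue) regions per 1000 merged regions of each chromosome. Bottom, percent of the tested regions of each chromosome whose 4 MUT values all lie above (red) or below (blue) the 4 WT values: chromosome 14 has the tallest gained bar (7.39) and the tallest bar of higher regions (2.63%).

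Regions present in every library next to a gain or a loss were read separately. Within 10 kb of a gained region lay 131 regions called in all 8 libraries, with a median rank difference of -1.58 against -0.121 over all regions. Of these, 6 were lower (4.58%) and 1 higher (0.763%) in MUT without overlap, against 1.55% and 1.74% over all regions. Within 50 kb of a gain, 17 were higher and 17 lower of 641 (2.65% each). Within 50 kb of a loss 8 were higher (4.30%) and 2 lower (1.08%) of 186. By summit pileup 976 of all regions were higher (2%) and 904 lower (1.86%) without overlap. Within 10 kb of a gain the pileup counts were 2 higher and 2 lower, within 50 kb 25 and 8, and within 50 kb of a loss 11 and 5. The balance of higher and lower neighbours thus differed between the ratio and the pileup within 50 kb of a gain, and was not tested.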

How the data were processed

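Peak lists of 8 ATAC-seq libraries were used. Per the submitters' processing notes, Bowtie2, SAMtools, MACS2 and the mm10 build were used, with no versions, and 1 list per library was deposited, so peaks were called per sample. Parameters and any shift of cut sites are not given in the sources used here. The deposited columns used were the fold enrichment (a ratio), the −log10 p-value and −log10 q-value and the summit offset; the deposited score repeats the q-value and was not used. The lowest −log10 q-value was 3.0.

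Peaks on chromosomes 1 to 19 were merged where they overlapped by at least 1 bp. The highest ratio per library was ranked over regions called in all 8 libraries, scaled to 100, and compared, 4 against 4, with limma 3.58.1 (trended variance, Benjamini-Hochberg over all regions) in R 4.3.3. The fit was tested on simulated data. Standard errors of rank differences are limma's. Whole-number summit pileups were recovered by solving the ratio and p-value of the peak caller, within 0.001 for at least 99.9986% of peaks per library; the lowest local background is the genome background. Ratios of fold enrichment were centred on library medians of log2 values. Genes are 20665 protein-coding spans of RefSeq GRCm38.p6, which carry no strand. Of 350 list genes, 343 matched. Named regions are the 6 with the lowest p without overlap in each class and direction, the 6 strongest gains and losses, the list regions with the lowest p and those at Bcl11a; other list members without overlap, those by pileup, on distal chromosome 4 and in windows were chosen after their values were seen. Members and lists were chosen with earlier results of these data known. No genome sequence was used.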

Additional observations from a re-analysis of the deposited data

Results flagged for a closer look

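In 82 groups of 4 values, 5 held a library far from the other 3, and chance gives about 1 in 20. At the Gm3248 end, WT T1 replicate 2 had a rank of 6.92, against 21.8 to 23.1 in the other WT libraries. Inside Camsap1, MUT T1 replicate 2 stood at 6.11, against 11.4 to 12.2 in the other MUT libraries. At Bcl11a, the region starting at 24076085 had a rank of 1.38 in WT T2 replicate 1, against 0.651 to 0.692 in the other WT libraries, and the region starting at 24139163 a rank of 11.3 in MUT T1 replicate 1, against 23.7 to 24.9. At the lost region inside Oxr1, fold enrichment was 10.7 in WT T2 replicate 2, against 7.25 to 7.69 in the other WT libraries.

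Chromosomes X and Y lay outside the comparison. Of 2012 regions on chromosome X, 3 met the rule for a gain and 2 that for a loss. On chromosome Y, 1 of 21 regions met the rule for a gain. Over all merged regions of the comparison, 0.223% were gained and 0.0597% lost. The few regions on X and Y were not tested against these shares, and they are given as counts only.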

How the results depend on the processing

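Regions past an adjusted p of 0.05 in limma numbered 0 in both directions as reported, 2 higher with log2 fold enrichment, 3 higher with normal scores, and 16 higher and 5 lower with summit pileup; the cause was not tested. The count was 0 both ways under the other settings run, with the lowest adjusted p at 0.0868 to 0.876, among them the depth term (0.167), which was added after seeing the data. Regions without overlap numbered 1416 to 1885 higher and 1381 to 1888 lower with 1 library left out, and 6339 and 6243 without the 3 shallowest libraries. Gained regions numbered 276 to 528 and lost ones 70 to 161 with 1 library left out, and 1165 and 790 without the 3 shallowest; these counts grow because fewer calls are required. With equal numbers of peaks 80 were lost. Of the regions without overlap, 22.9% lay at gene ends, 20.4% with a distance of 500 bp and 26.9% with 2 kb, against 27.5%, 25.3% and 31.1% of all regions tested. Of 522 alternative values of the 24 named graded regions, 521 had the main direction. The exception was Gm572 by summit pileup (-4.74, the cause was not tested). The 24 regions were picked for not overlapping between genotypes. With the same ranks (T1 or T2 alone, population term, replicate block) their direction could not turn. The count of 521 therefore does not measure how stable they are.

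Replicate numbers were checked between the MUT and the WT library of the same population and number. Their deviations from group means correlated at 0.0320 in T1 and 0.0272 in T2. Of 8 libraries, 2 correlated best with the library of their own population and number. The check does not cover T1 and T2 libraries of the same genotype, which could share an animal. With the replicate block, which used the same pairs, 0 regions were higher and 0 lower at a limma adjusted p of 0.05. At an unadjusted limma p under 0.05 there were 1463 and 1299. A peak list holds no value below its threshold, so depth limits what can be called absent.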

Other observations

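Some genes held several regions higher in every MUT than in any WT library. Pde4d, a cyclic AMP phosphodiesterase gene, held 4 of 42 tested regions of this kind, with rank differences of 10.98 to 30.2. Peli2 held 3 of 11 and the AKT phosphatase gene Phlpp1 3 of 14. The signal peptide peptidase gene H13 held 3 of 5, the transglutaminase gene Tgm3 3 of 5 and Plcl1 3 of 9. Over all regions tested, 1.74% were of this kind, and the genes were picked for holding 3 or more. None of these genes held a region lower in every MUT library, and no gene had 3 or more of that kind. The genes were chosen after their values were seen, and with an unadjusted limma p of 2.08e-06 to 0.00914 for their leading regions none passed an adjusted p of 0.05 by rank.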
